A study of Mus musculus with 16 samples.

Results

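The genes described here are 10 transcripts typical of the gastric gland, measured in mouse pancreas: Cym, Pga5, Pgc, Gif, Gkn3, Muc6, Slc9a4, Vsig1, Tff2 and Atp4a. They were taken by name from a table of 15156 genes, and all 10 passed the filter of at least 10 normalized counts in at least 4 libraries, as did 14220 genes in all. The members were chosen by their levels in earlier comparisons of MC and DMC pancreas with WT pancreas, in which most of them stood high in MC and DMC. Those comparisons, and DMC against DC, which uses the same DMC libraries, are therefore given as a description, with nothing drawn from their tests. The label of chief and mucous neck cell genes covers most of the list but not Atp4a, which encodes a subunit of the proton pump of parietal cells, the acid-secreting cells of the stomach.

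Total RNA of whole pancreas was sequenced from 16 mice in 4 genotype groups of 4 animals. DMC mice carried Daxx fl/fl, Men1 fl/fl and the Pdx1-Cre transgene, MC mice carried Men1 fl/fl and Pdx1-Cre, DC mice carried Daxx fl/fl and Pdx1-Cre, and WT mice were wild type, with no Cre transgene named in their label. All 16 animals were adults of 6 to 10 weeks, and all had received caerulein at 50 ug/kg a dose to induce chronic pancreatitis. Caerulein mimics cholecystokinin and overdrives enzyme secretion. It was injected intraperitoneally each hour for 4 doses, on 3 days of each of 3 weeks, and pancreas was taken 5 days after the last dose. Menin, the product of Men1, is a chromatin-bound tumour suppressor, and the product of Daxx loads a variant of histone H3 into chromatin. Pdx1-Cre acts in pancreatic epithelium from early development and also in neighbouring foregut epithelium, so the alleles are not lost in 1 cell type alone. Whole pancreas mixes many cells, and a larger number of cells of a type cannot be told apart from more RNA per cell. Effects of the Cre transgene itself cannot be told apart from those of the floxed alleles in any comparison with WT.

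In the stomach, chief cells at the base of the gland store and release digestive zymogens, while mucous neck cells higher in the gland secrete mucins and trefoil peptides. Chief cells arise from neck cells, and after injury the gland can form a lineage that carries features of both, known as spasmolytic polypeptide-expressing metaplasia. Stomach and pancreas come from adjacent parts of the foregut, and their zymogen-secreting cells share transcription factors.

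RefSeq promoter windows of GRCm38.p6, running from 250 bases before to 50 bases after the RefSeq start of each gene, were found for 7 of the 10 members, and Pga5, Slc9a4 and Tff2 had no entry. The windows of 5 members are shown because these genes were high in the same libraries, which makes it useful to see whether their starts share short motifs. Each is printed 5′ to 3′ on the strand of its gene. Capitals mark the TATA box, searched as TATAAA, and a GATA-factor motif, searched as AGATAA. The windows lie at chr3:107221683-107221982 (minus strand, Cym), chr17:47726592-47726891 (plus, Pgc), chr6:87388886-87389185 (minus, Gkn3), chr7:141655344-141655643 (minus, Muc6) and chr19:11747309-11747608 (plus, Gif, listed there as Cblif).
Cym: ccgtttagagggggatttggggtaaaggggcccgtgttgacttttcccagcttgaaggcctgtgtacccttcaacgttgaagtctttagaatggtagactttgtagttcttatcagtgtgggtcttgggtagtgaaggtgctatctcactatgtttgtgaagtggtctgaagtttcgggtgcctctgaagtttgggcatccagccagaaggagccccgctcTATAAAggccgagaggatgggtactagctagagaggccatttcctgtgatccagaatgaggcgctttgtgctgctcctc
Pgc: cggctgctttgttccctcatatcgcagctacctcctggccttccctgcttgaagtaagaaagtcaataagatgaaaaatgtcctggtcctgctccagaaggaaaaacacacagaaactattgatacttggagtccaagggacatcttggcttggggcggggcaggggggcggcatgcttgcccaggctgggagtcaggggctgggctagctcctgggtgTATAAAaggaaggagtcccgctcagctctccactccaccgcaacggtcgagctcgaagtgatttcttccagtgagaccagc
Gkn3: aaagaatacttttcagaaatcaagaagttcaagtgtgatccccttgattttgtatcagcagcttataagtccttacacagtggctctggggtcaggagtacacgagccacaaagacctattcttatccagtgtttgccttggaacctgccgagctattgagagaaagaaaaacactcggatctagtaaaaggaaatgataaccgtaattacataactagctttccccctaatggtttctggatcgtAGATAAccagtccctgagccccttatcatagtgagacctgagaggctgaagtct
Muc6: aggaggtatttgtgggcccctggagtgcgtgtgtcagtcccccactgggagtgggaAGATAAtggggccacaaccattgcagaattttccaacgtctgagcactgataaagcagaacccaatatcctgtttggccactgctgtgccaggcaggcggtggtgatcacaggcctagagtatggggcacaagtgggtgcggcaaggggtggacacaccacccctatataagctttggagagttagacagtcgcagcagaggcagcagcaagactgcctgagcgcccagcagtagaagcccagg
Gif: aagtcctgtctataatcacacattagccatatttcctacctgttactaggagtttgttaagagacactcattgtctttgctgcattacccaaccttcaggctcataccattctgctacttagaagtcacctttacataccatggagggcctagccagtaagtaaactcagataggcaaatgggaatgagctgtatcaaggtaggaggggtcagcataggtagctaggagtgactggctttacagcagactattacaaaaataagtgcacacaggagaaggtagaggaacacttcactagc

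All motifs were searched on both strands. Positions count from the RefSeq start, which is the annotated GENCODE start for Cym, Pgc, Gkn3, Vsig1 and Atp4a. In Muc6 the RefSeq start is base 141655393 of chromosome 7, 74 bases upstream of the GENCODE start at 141655319, so that the Muc6 window lies wholly before the GENCODE start. In Gif the RefSeq start lies 5 bases downstream of the GENCODE start. TATAAA stood at position -29 in Cym and at -31 in Pgc, and 13.6% of all 32851 windows held it on either strand. The GATA motif stood at -4 in Gkn3 and at -194 in Muc6, against 11.2% of all windows. A forkhead motif, TGTTTAC, was in none of the 7 members' windows, against 3.65% of all windows. An E-box, CAGCTG, was in Atp4a alone, at -67 and -57, against 16.3%. None of these motifs was common to the members. No 2 of these matches overlap, and a match describes letters only.

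The table held 13481063 to 23728309 reads per library, recovered from the deposited normalized counts. Men1 had 168 ± 10.6 normalized counts in DMC and 132 ± 13.3 in MC, against 482 ± 61.9 in DC and 368 ± 61.3 in WT (SD, n = 4 each), whereas Daxx had 182 ± 30.4 in DMC, 246 ± 26.1 in MC, 223 ± 15.6 in DC and 263 ± 65.0 in WT. Daxx in DC did not pass limma's test against WT (adjusted p = 0.683), nor did Daxx in DMC (adjusted p = 0.193), so the level of Daxx did not separate DC from WT by this test. The summed level of 10 acinar genes was 4318670 to 8495860 normalized counts in DMC, 4276130 to 7692050 in MC, 3477230 to 7445080 in DC and 6451580 to 12216700 in WT, so every library carried the zymogen transcripts that define pancreas. Libraries 2 and 3 of WT stood apart in lymphoid genes, with summed levels of 2654 and 5292, while the other 14 libraries had 120 to 1775. Genes of the Y chromosome were high in DMC 1 and 3, MC 1 and 2, DC 1 and WT 1 and 2, and close to 0 in the other 9 libraries, with both kinds in each genotype.

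Of the 10 members, 8 were higher in every one of the 8 DMC and MC libraries, whose Men1 is floxed, than in every one of the 8 DC and WT libraries, whose Men1 is not. Tff2 and Atp4a were not among them. The narrowest of these 8 margins were those of Muc6, whose lowest DMC or MC library was 1.03-fold above its highest DC or WT library, and Slc9a4, at 1.07-fold. The widest was that of Cym, at 48.6-fold. Taken by comparison, 8 members had every MC library above every WT library, where 4.16% of all genes did. In DMC against WT 8 did (5.19% of all genes), and in DMC against DC 9 did, Atp4a among them (3.55% of all genes). The share of all genes that separate all 8 DMC and MC libraries from all 8 DC and WT libraries was not computed. Both kinds of separation are part of what the members were chosen for.

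**Figure D1:**
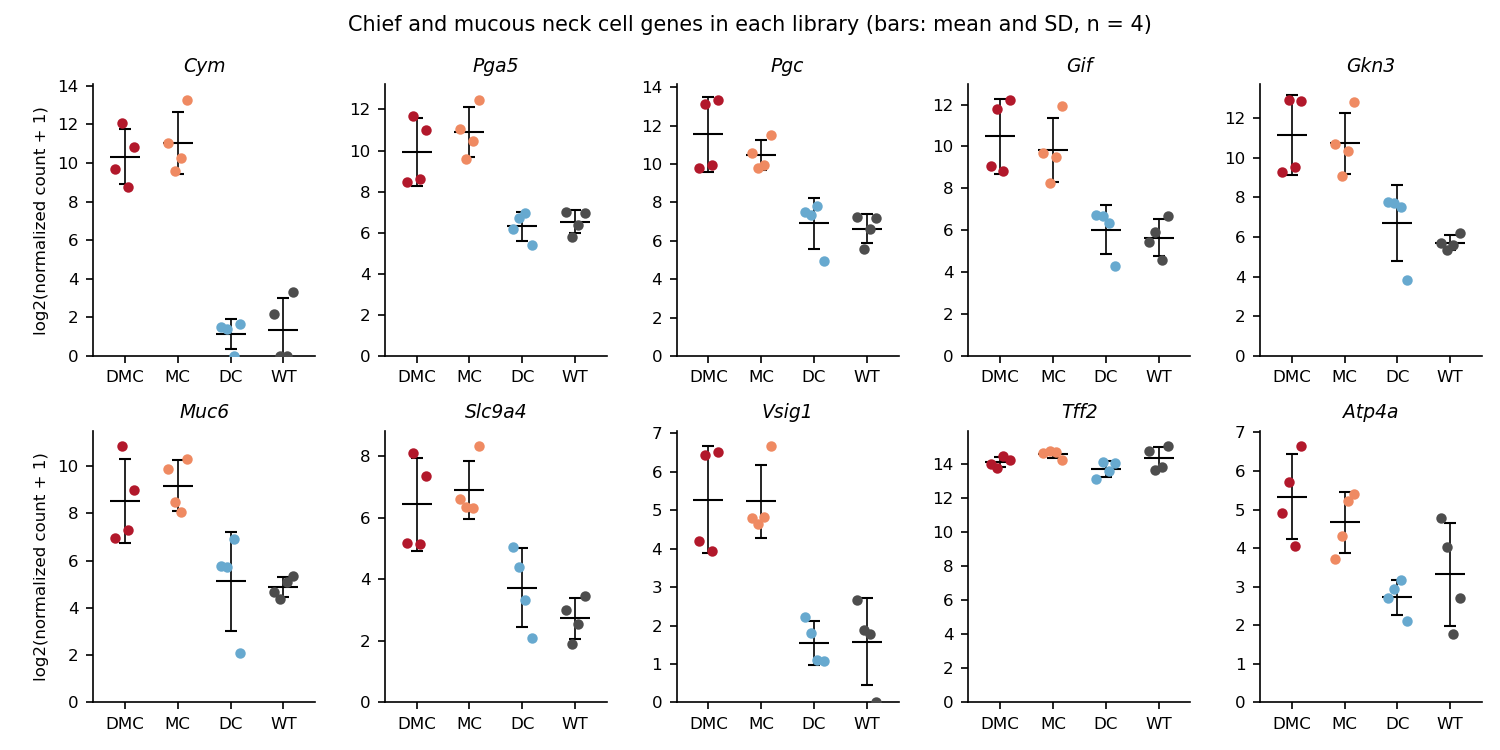
Each panel gives 1 gene, with log2(normalized count + 1) on the y axis and the groups DMC, MC, DC and WT on the x axis. Points are libraries and bars the mean and SD of 4. DMC and MC points lie above DC and WT points in every panel except those of Tff2 and Atp4a.

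The zymogens come first. Cym encodes chymosin, the milk-clotting aspartic protease of the young stomach (ENSMUSG00000046213.9, chromosome 3, 107211293 to 107221732, minus strand, GRCm38). Cym had 816, 4329, 427 and 1790 normalized counts in DMC and 2089, 768, 1219 and 9856 in MC, against 1.84, 1.66, 0 and 2.20 in DC and 3.54, 0, 0 and 8.78 in WT. All DC and WT libraries together held 17 Cym reads, while DMC and MC libraries together held 26562. Cym was thus near or under the limit of detection in DC and WT, where a value of 0 allows up to 3 reads, or 1.84 to 5.30 normalized counts depending on the library, from counting error alone. The log2 difference, fitted on the normalized count plus 1, was 8.96 ± 0.88 (SE) in DMC against WT and 9.67 ± 0.88 in MC against WT, and both values depend on the pseudocount because WT is so low. Cym was the member with the largest such difference.

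Pga5 encodes pepsinogen A, the inactive form of the main protease of adult gastric juice (ENSMUSG00000024738.6, chromosome 19, 10668956 to 10678071, minus strand). Pga5 had 352, 3322, 389 and 2049 normalized counts in DMC and 2091, 775, 1413 and 5654 in MC, against 72.2, 104, 125 and 40.7 in DC and 126, 54.2, 83.2 and 122 in WT. Unlike Cym, Pga5 was detected in every DC and WT library. Pga5 differed on the log2 scale by 3.42 ± 0.69 in DMC against WT and 4.36 ± 0.69 in MC against WT.

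Pgc encodes pepsinogen C, the related zymogen that is also made by neck cells and by the pyloric glands (ENSMUSG00000023987.14, chromosome 17, 47726842 to 47734482, plus strand). Pgc had 880, 8974, 1002 and 10444 normalized counts in DMC and 1512, 891, 986 and 2970 in MC, against 181, 160, 228 and 29.7 in DC and 150, 46.1, 96.3 and 143 in WT. The DMC libraries fell into a high and a low pair, with the highest 11.9 times the lowest, while in MC the highest was 3.33 times the lowest. Pgc differed on the log2 scale by 4.92 ± 0.81 in DMC against WT and 3.82 ± 0.81 in MC against WT.

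Gif encodes gastric intrinsic factor, the vitamin B12 carrier that mouse chief cells secrete (ENSMUSG00000024682.3, chromosome 19, 11747554 to 11763447, plus strand). Gif had 539, 3567, 456 and 4790 normalized counts in DMC and 811, 305, 720 and 3848 in MC, against 107, 103, 79.8 and 18.7 in DC and 42.4, 59.7, 22.8 and 101 in WT. The highest library was 10.5 times the lowest in DMC and 12.6 times in MC. The log2 difference was 4.83 ± 0.85 in DMC against WT and 4.18 ± 0.85 in MC against WT. Pga5 and Gif lie on the chromosome of the floxed Men1 gene, 4.33 and 5.41 Mb from it, and Pgc and Tff2 lie on that of Daxx, 13.8 and 2.77 Mb away, so sequence carried along with a floxed allele cannot be told apart from the allele at these 4 genes. The other 6 members lie on other chromosomes.

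Next are the genes of neck cells and of the gland's mucus. Gkn3 encodes gastrokine 3, a secreted peptide of mouse mucous neck cells (ENSMUSG00000030048.5, chromosome 6, 87383256 to 87388935, minus strand). Gkn3 had 627, 7697, 733 and 7444 normalized counts in DMC and 1640, 546, 1275 and 7060 in MC, against 213, 207, 181 and 13.2 in DC and 51.3, 38.9, 46.5 and 73.6 in WT. DC 1, DC 2 and DC 3 stood above all WT libraries and DC 4 below them, so DC and WT overlapped. Gkn3 differed on the log2 scale by 5.44 ± 0.99 in DMC against WT and 5.02 ± 0.99 in MC against WT.

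Muc6 encodes the gel-forming mucin of neck and pyloric gland cells, also made by Brunner's glands (ENSMUSG00000048191.15, chromosome 7, 141633456 to 141655319, minus strand). Muc6 had 122, 1828, 157 and 508 normalized counts in DMC and 930, 357, 264 and 1246 in MC, against 53.9, 51.4, 118 and 3.30 in DC and 24.8, 19.9, 33.5 and 39.5 in WT. The lowest DMC library was close to the highest DC library. DC libraries were the most uneven, with the highest 35.9 times the lowest. Muc6 differed on the log2 scale by 3.64 ± 0.92 in DMC against WT and 4.29 ± 0.92 in MC against WT.

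Tff2 encodes trefoil factor 2, the spasmolytic polypeptide after which the metaplastic lineage is named (ENSMUSG00000024028.7, chromosome 17, 31141049 to 31144282, minus strand). Tff2 had 16622, 14240, 22992 and 19234 normalized counts in DMC and 26285, 28784, 26599 and 19840 in MC, against 8895, 17853, 12272 and 17223 in DC and 27992, 13274, 14938 and 34117 in WT. Tff2 was high in all 16 libraries, and DMC, MC and DC each overlapped WT. Its log2 difference was -0.21 ± 0.29 in DMC against WT and 0.27 ± 0.29 in MC against WT. Per kilobase of exon Tff2 was the most abundant member in every group, with mean levels of 31288 in DMC, 43454 in MC, 24076 in DC and 38664 in WT.

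Slc9a4 and Vsig1 are membrane proteins of the gastric epithelium. Slc9a4 encodes the sodium/hydrogen exchanger NHE4, found on the basolateral side of parietal and chief cells (ENSMUSG00000026065.8, chromosome 1, 40580081 to 40630725, plus strand). Slc9a4 had 35.5, 272, 34.0 and 161 normalized counts in DMC and 96.8, 81.0, 78.8 and 317 in MC, against 31.8, 19.9, 9.12 and 3.30 in DC and 7.07, 2.71, 4.90 and 9.88 in WT. Its lowest DMC library was just above its highest DC library. The annotation lists Gm35801 and Gm37435 on the opposite strand within Slc9a4. The library kit kept strand, but whether the counting used it is not given in the sources used here, so reads of these genes may be included.

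Vsig1 encodes an immunoglobulin-family junction protein of the glandular stomach (ENSMUSG00000031430.8, chromosome X, 140907608 to 140939472, plus strand). Vsig1 had 17.3, 85.9, 14.4 and 90.5 normalized counts in DMC and 27.0, 23.8, 27.3 and 100.1 in MC, against 3.67, 2.49, 1.14 and 1.10 in DC and 5.30, 2.71, 2.45 and 0 in WT. All DC and WT libraries together held 20 Vsig1 reads and DMC and MC libraries 458, so its low end was at the limit of detection. The log2 differences of DMC and of MC against WT were 3.71 ± 0.73 and 4.17 ± 0.73 for Slc9a4, and 3.69 ± 0.70 and 3.65 ± 0.70 for Vsig1.

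Atp4a, the catalytic subunit of the gastric proton pump, is the member that marks parietal cells (ENSMUSG00000005553.14, chromosome 7, 30712209 to 30725534, plus strand). Atp4a had 29.1, 51.4, 15.7 and 98.7 normalized counts in DMC and 12.3, 19.0, 36.4 and 41.3 in MC, against 5.51, 6.64, 7.98 and 3.30 in DC and 26.5, 15.4, 2.45 and 5.49 in WT. Both DMC and MC overlapped WT, while all DMC libraries stood above all DC libraries. The log2 difference was 2.01 ± 0.64 in DMC against WT and 1.35 ± 0.64 in MC against WT.

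Per kilobase of exon, the order of the group means in DMC was Tff2, Gkn3 at 4819, Pgc at 3836, Gif at 1521, Cym at 1489, Pga5 at 946, Muc6 at 69.8, Slc9a4 at 27.5, Vsig1 at 18.8 and Atp4a at 13 normalized counts. The DMC ranges of Gkn3 and Pgc, and those of Gif, Cym and Pga5, overlapped. In MC the order after Tff2 was Gkn3 at 3073, Cym at 2818, Pga5 at 1537, Pgc at 1145, Gif at 924, Muc6 at 74.7, Slc9a4 at 31.4, Vsig1 at 16.1 and Atp4a at 7.25. In WT, Cym came eighth at 2.49 per kilobase, after Tff2, Pgc at 78.4, Gkn3 at 61.4, Pga5 at 59.6, Gif at 36.8, Atp4a at 3.31 and Muc6 at 3.14, and before Slc9a4 at 1.35 and Vsig1 at 0.95. Zymogen transcripts other than Cym were therefore present, at low level, in WT pancreas too.

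Over the whole list, 8 members passed an adjusted p of 0.05 in limma in MC against WT, all higher in MC, where 0.485% of all 14220 genes did so. In DMC against WT 7 members did, where 0.591% of all genes did, and Muc6, Tff2 and Atp4a did not. In DMC against DC 5 members did, where 0.267% of all genes did. The members were chosen with these calls known, so the counts describe the choice. The median log2 difference of the members was 4.18 in MC against WT, 3.70 in DMC against WT and 3.67 in DMC against DC, and that of all genes tested was -0.02, -0.02 and 0.00.

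The comparison of DMC with MC shows the members with and without the floxed Daxx alleles where Men1 is floxed, and was not used to choose them. No member passed limma's test, and DMC and MC overlapped for all 10, while 2.14% of all genes had every DMC library above every MC library and 1.86% every DMC library below. The counts called were 0 of 10 by limma, 0 by edgeR's quasi-likelihood test and 0 by DESeq2, and 0 had an unadjusted limma p under 0.05, beside 0.00703% of all genes called by limma and 5.57% with an unadjusted p under 0.05. The log2 differences of DMC against MC ran from -0.95 for Pga5 (95% interval -2.42 to 0.52) to 1.10 for Pgc (-0.62 to 2.81), with a median of -0.21 over the members and 0.01 over all genes tested. Limma's adjusted p-values ran from 0.943 to 0.997. The interval was widest for Gkn3 and narrowest for Tff2. Cym was at -0.71 (-2.58 to 1.16), Muc6 at -0.65 (-2.61 to 1.31), Slc9a4 at -0.46 (-2.01 to 1.08) and Tff2 at -0.48 (-1.10 to 0.14). Gif was at 0.65 (-1.16 to 2.47), Gkn3 at 0.43 (-1.67 to 2.53), Vsig1 at 0.04 (-1.45 to 1.54) and Atp4a at 0.66 (-0.71 to 2.03).

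DC against WT differs in the floxed Daxx alleles and also in Pdx1-Cre, which the WT label does not name, whereas DMC and MC both carry Pdx1-Cre. The alleles and the transgene therefore cannot be told apart in DC against WT, nor in the interaction, which is DMC against MC minus DC against WT. The WT libraries were also used in the comparisons that chose the members, as were the DMC and MC libraries of the interaction. The values of DC against WT and of the interaction are therefore not independent of that choice. In DC against WT 0 of 10 members were called by limma, 0 by edgeR and 0 by DESeq2, beside 0.0211% of all genes called by limma. There 1 member, Tff2, had an unadjusted limma p under 0.05, as did 11.7% of all genes. The log2 differences ran from -0.62 to 0.99, with a median of 0.10 against -0.02 for all genes. Gkn3 had the highest, 0.99 (95% interval -1.11 to 3.09), followed by Slc9a4 at 0.99 (-0.56 to 2.54). In the interaction 0 of 10 members were called by limma, edgeR or DESeq2 and 0 had an unadjusted limma p under 0.05, beside 0% of all genes called and 8.13% with an unadjusted p under 0.05.

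**Figure D2:**
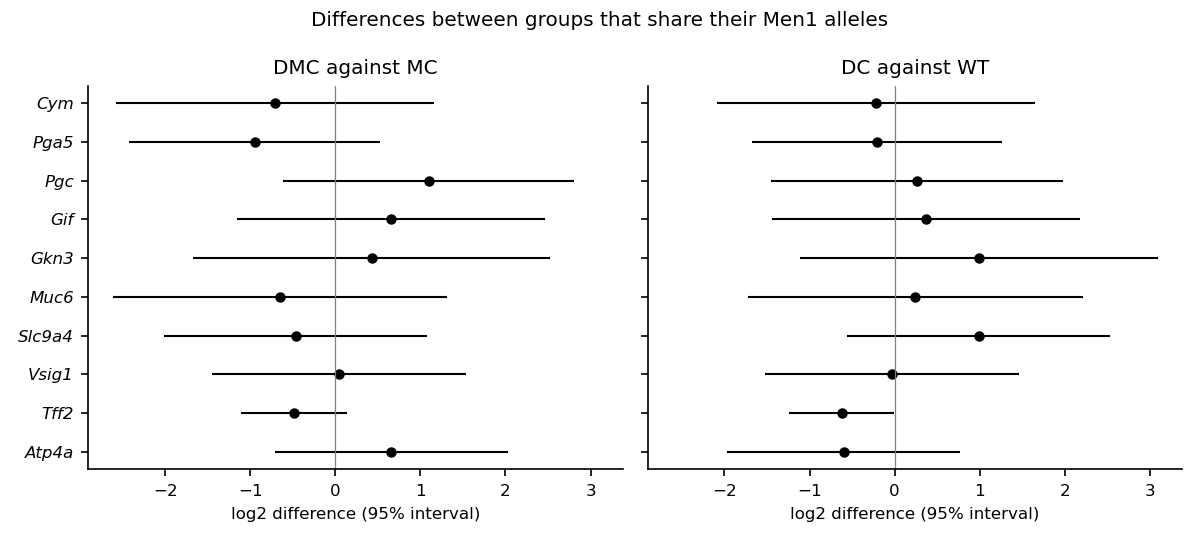
Log2 differences of DMC against MC (left) and DC against WT (right) on the x axis, 1 member a row, with 95% intervals from limma over 16 libraries. In DMC against MC every interval includes 0, and the values run from -0.95 for Pga5 to 1.10 for Pgc.

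Most members were high or low in the same animals of the 8 DMC and MC mice. DMC 2 and MC 4 were each among the 3 highest of these 8 libraries for 9 members, and DMC 4 for 6. At the other end, DMC 1 was among the 3 lowest for 9 members, DMC 3 for 8 and MC 2 for 7. The 9 members other than Tff2 summed to 3418, 30126, 3228 and 27375 normalized counts in DMC and to 9209, 3765, 6020 and 31091 in MC, against 670, 657, 751 and 116 in DC and 437, 240, 292 and 503 in WT. DMC and MC thus each held animals of very unequal level, with every one of them above every DC and WT animal. The 3 highest libraries had Y-linked levels near 0, as did MC 3, which was not among the highest, and the 4 libraries with high Y-linked levels were DMC 1, DMC 3, MC 1 and MC 2. The same 3 had the lowest acinar sums of the 8, at 4318670, 5467640 and 4276130 normalized counts, where the other 5 had 6081150 to 8495860. The part of sex or of acinar content in these levels was not tested.

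**Figure D3:**
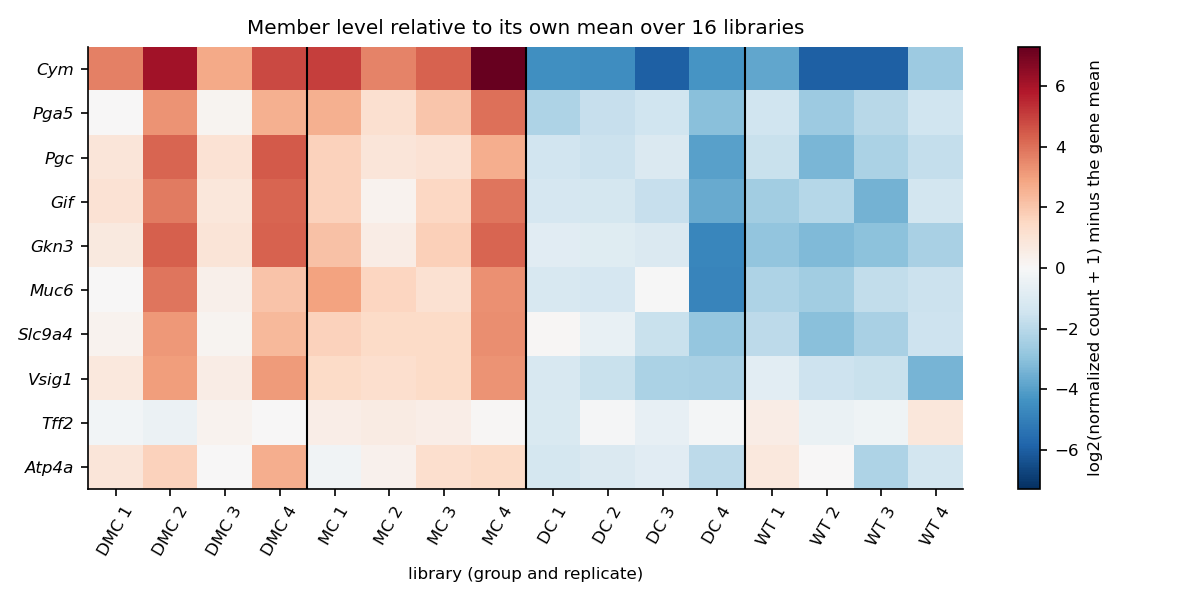
Each cell gives log2(normalized count + 1) of a member in a library minus that member's mean over the 16 libraries (red above, blue below). Libraries run in the order DMC, MC, DC and WT along the x axis. DMC 2, DMC 4 and MC 4 are the darkest red columns, DC 4 is the lowest of the DC and WT columns for 5 members, and the Tff2 row is nearly blank.

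Within the 8 DMC and MC libraries, levels of Pgc, Gif, Gkn3 and Vsig1 fell into separate high and low clusters, so no correlation is given for them. Gif, Gkn3 and Vsig1 had DMC 2, DMC 4 and MC 4 in the high cluster, and Pgc had DMC 2 and DMC 4. Among the other 6 members 15 pairs were computed, and 6 passed after Benjamini-Hochberg adjustment of the exact permutation p over all 36 pairs given here. These 6 were all the pairs among Cym, Pga5, Muc6 and Slc9a4. Slc9a4 with Pga5 was the closest, with Pearson r = 0.960 (exact permutation p = 0.000794, adjusted 0.00952) and Spearman rho = 0.929 (exact permutation p = 0.00223, adjusted 0.0161), and r = 0.896 without the 2 libraries farthest from the median. That median is of 1 gene only, the one of the pair named first in the opening list of members, here Pga5. Libraries extreme in the other gene may therefore remain. Cym with Muc6 was the loosest, with r = 0.870 (exact permutation p = 0.00481, adjusted 0.0217) and rho = 0.857 (exact permutation p = 0.0107, adjusted 0.0386), and r = 0.903 without 2 libraries. No pair with Tff2 or Atp4a passed. With each group's mean subtracted, for which no p was computed, the 6 pairs had r of 0.862 to 0.969. In that version Tff2 had r of -0.878 with Cym, -0.696 with Pga5, -0.657 with Muc6, -0.717 with Slc9a4 and -0.482 with Atp4a. Without the subtraction these were -0.399, -0.194, -0.261, -0.335 and -0.577. With 6 libraries left, 0 pairs passed after adjustment. Only 4 of these libraries were high in Y-linked genes and 4 low, too few for a correlation within either.

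In the 8 DC and WT libraries, Cym, Muc6 and Vsig1 each had a gap wider than 0.4 of their range, so no correlation is given for them. For Muc6 the gap set only DC 4 apart, at 3.30 normalized counts, and for Vsig1 only WT 4, at 0. For Cym it set apart DC 3, WT 2 and WT 3, all at 0. Among the other members 21 pairs were computed, of which 4 passed. Pgc with Gkn3 had r = 0.881 (exact permutation p = 0.000471, adjusted 0.00952) and rho = 0.905 (exact permutation p = 0.00456, adjusted 0.0205), and r = 0.764 without the 2 farthest libraries. Gkn3 with Slc9a4 had r = 0.863 (exact permutation p = 0.00481, adjusted 0.0217) and rho = 0.952 (exact permutation p = 0.00114, adjusted 0.0161), and r = 0.850 without them. Gif with Gkn3 had r = 0.841 (exact permutation p = 0.00833, adjusted 0.03) and rho = 0.905 (exact permutation p = 0.00456, adjusted 0.0205), and r = 0.734 without them. Pga5 with Pgc had r = 0.877 (exact permutation p = 0.00657, adjusted 0.0263) but rho = 0.619 (exact permutation p = 0.115, adjusted 0.318). Without the 2 libraries farthest from the Pga5 median its r was 0.304. DC 4 was the lowest of these 8 libraries for 5 members and among the 2 lowest for 8.

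The mix of members within a library was compared between DMC and MC by the ratio of each of the 45 pairs, a comparison added after the levels had been seen. Zymogen proportions differed in value: Pga5 stood at 0.401, 0.370, 0.389 and 0.196 of Pgc in DMC and at 1.38, 0.870, 1.43 and 1.90 of Pgc in MC. No DMC library reached the lowest MC library. The mean log2 ratio, DMC minus MC, was -2.04 (exact permutation test over 70 assignments, two-sided p = 0.0286, the smallest these group sizes allow). After adjustment over the 45 pairs that p became 0.184, so the difference did not pass. At these group sizes a pair could pass only if most of the 45 pairs reached the smallest p, so the adjusted value decides little.

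In 6 further pairs DMC and MC did not overlap, which makes 7 of 45, beside 4.50% of all pairs of the 14220 genes. The 7 pairs are not independent, since each holds Pga5, Pgc or Gif. Each of the 6 had the same exact permutation p = 0.0286 and adjusted p = 0.184. Pga5 was lower in DMC relative to Gif (mean log2 ratio DMC minus MC -1.60) and Gkn3 (-1.37), and Cym was lower relative to Gif (-1.36). Pgc was higher in DMC relative to Muc6 (1.75) and Slc9a4 (1.56), and Gif was higher relative to Slc9a4 (1.12). Cym relative to Pgc differed by -1.81 but overlapped, with 0.928, 0.482, 0.426 and 0.171 in DMC and 1.38, 0.863, 1.24 and 3.32 in MC. By contrast the ratio of Gif to Gkn3 was 0.860, 0.463, 0.622 and 0.644 in DMC and 0.495, 0.558, 0.564 and 0.545 in MC, overlapping fully. None of the 45 pairs passed after adjustment, an outcome that these group sizes nearly fixed in advance.

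**Figure D4:**
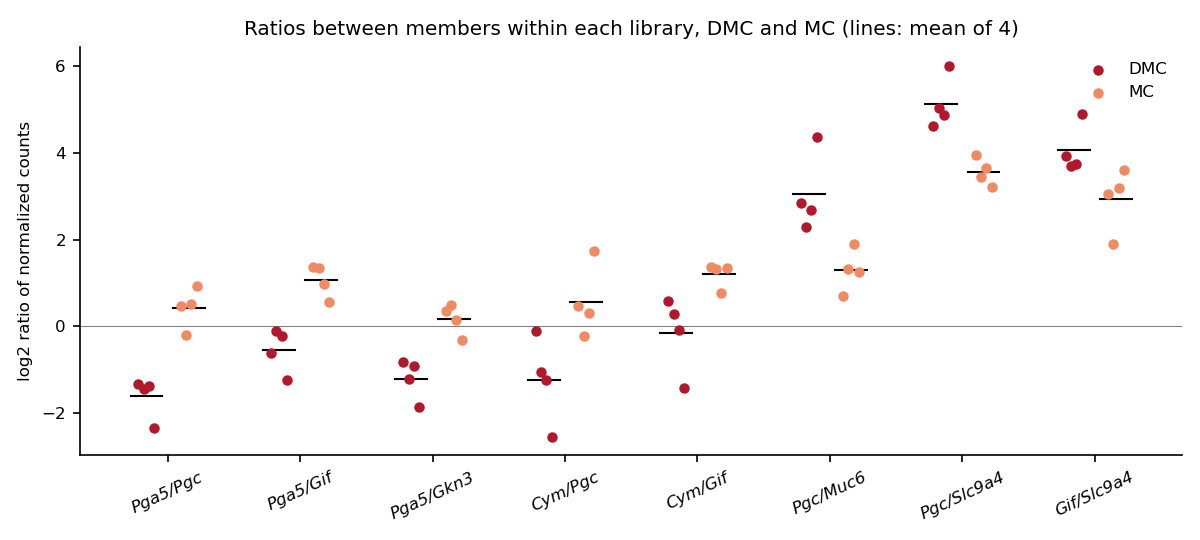
Log2 ratio of the normalized counts of 2 members within a library on the y axis, for the 7 pairs that do not overlap between DMC and MC and for Cym to Pgc. Points are libraries, DMC left of MC in each pair, and lines are means of 4. Pga5 to Pgc lies below 0 in every DMC library.

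Other genes of the stomach were read from lists drawn up for this tissue with earlier results known. Of 12 other mucous neck and metaplasia genes tested, 2 rose in MC against WT and 2 in DMC against WT, and 0 fell. Both times these were A4gnt, the enzyme that caps the glycans of Muc6-type mucin, and Olfm4, a secreted glycoprotein of gland-base and stem cells. A4gnt had 13.7, 218, 17 and 139 normalized counts in DMC and 58.8, 17.5, 25.3 and 214 in MC, against 1.84, 1.66, 4.56 and 0 in DC and 1.77, 1.81, 4.08 and 1.10 in WT. DESeq2 called 3 of the 12 in each comparison, these and Aqp5, and edgeR called Olfm4 alone in MC against WT. Like the members, A4gnt was highest in DMC 2, DMC 4 and MC 4, and all DMC and MC libraries exceeded all others. A4gnt rose by a log2 difference of 4.14 in DMC against WT (limma adjusted p = 0.0445) and 4.05 in MC against WT (adjusted p = 0.0493). These calls are fragile: they were lost under 17 and 19 of 30 alternatives, among them leaving out any 1 of most libraries: DMC 2 or 4, MC 1, 2 or 3, DC 2 or 3, or any WT library for DMC (3.46 to 4.39), and DMC 4, any MC library, DC 2 or 3, or any WT library for MC (3.35 to 4.53).

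Olfm4 had 92.9, 125, 67.9 and 240.3 normalized counts in DMC and 99.3, 38.1, 118 and 192 in MC, against 55.7, 14.1, 7.98 and 7.70 in DC and 8.84, 16.3, 6.53 and 9.88 in WT. Olfm4 rose in DMC against WT (log2 difference 3.45, limma adjusted p = 0.0153) and in MC against WT (3.17, adjusted p = 0.0236), and DMC and MC each lay wholly above WT. The call in DMC was lost without DMC 4 (3.11) or WT 3 (3.27), and that in MC without MC 1 (3.15), MC 3 (3.07), MC 4 (2.84) or WT 3 (2.99) and with a lymphoid covariate (3.07, adjusted p = 0.0516). Both calls were lost without both WT 2 and WT 3 (3.52, adjusted p = 0.0576, in DMC and 3.24, adjusted p = 0.0663, in MC). The median log2 difference of the 12 genes was 0.35 in DMC against WT and 0.28 in MC against WT, beside 0.788% and 0.781% of all genes called in either direction.

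Of 8 other parietal cell genes, 1 rose in MC against WT and 0 in DMC against WT, and 0 fell. Of all genes, 0.485% rose in MC against WT and 0.591% in DMC against WT. Only 3 of the 8 had a positive log2 difference in each comparison, with a median of -0.16 in MC and -0.02 in DMC. Slc26a9, a chloride channel of gastric surface and parietal cells, had 70.1, 138, 106 and 88.6 normalized counts in DMC and 152, 151, 160 and 257 in MC, against 57.5, 67.2, 67.2 and 45.1 in DC and 30.1, 88.6, 35.9 and 46.1 in WT. MC libraries all stood above every other library. In MC against WT the log2 difference was 1.91 (limma adjusted p = 0.00947), a call kept under all 30 alternatives run. In DMC against WT it was 1.07 (adjusted p = 0.142, with 0 of the 8 called by edgeR or DESeq2 and 1 with an unadjusted limma p under 0.05). Without WT 2 that difference passed, at 1.38 (adjusted p = 0.0322). The log2 difference of DMC against MC was -0.84 (adjusted p = 0.708), so DMC and MC were not shown to differ.

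Of 5 pit cell genes, which mark the mucous surface of the stomach, 1 rose in each comparison with WT, Foxq1, a transcription factor of surface mucous cells. Of all genes, 0.485% rose in MC against WT and 0.591% in DMC against WT. All 5 pit cell genes had a positive log2 difference in MC against WT (median 1.33) and 4 in DMC against WT (median 0.99). Foxq1 averaged 19.9 ± 7.71 normalized counts in DMC and 27.1 ± 4.41 in MC, against 7.77 ± 4.22 in DC and 4.49 ± 2.18 in WT (SD, n = 4 each). Foxq1 differed on the log2 scale by 1.94 in DMC against WT (limma adjusted p = 0.0468) and 2.43 in MC against WT (adjusted p = 0.0159). The first call was lost under 18 of 29 alternatives, among them leaving out any DMC or MC library, DC 2 or 3, or WT 2, 3 or 4 (1.71 to 2.18), and the second without MC 4 (2.33) and without both WT 2 and WT 3 (2.46).

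Of 5 stomach endocrine genes, 1 rose in each comparison with WT, Ghrl, which encodes ghrelin and is also made by islet cells of the developing pancreas. The median log2 difference of the 5 was 0.58 in MC against WT (4 positive) and 0.97 in DMC against WT (5 positive). Ghrl had 51.0, 345, 86.2 and 704 normalized counts in DMC and 161, 71.4, 269 and 892 in MC, against 26.9, 19.9, 18.2 and 5.50 in DC and 5.30, 6.33, 5.71 and 16.5 in WT. Its 3 highest libraries were DMC 2, DMC 4 and MC 4, as for most members. Ghrl differed on the log2 scale by 4.41 in DMC against WT (limma adjusted p = 0.0211) and 4.75 in MC against WT (adjusted p = 0.0133). The DMC call was lost in a fit of DMC and WT libraries alone (adjusted p = 0.0728) and without DMC 2 (4.10), DMC 4 (3.76) or WT 3 (4.29), and both calls without both WT 2 and WT 3 (4.12 in DMC and 4.46 in MC).

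**Figure D5:**
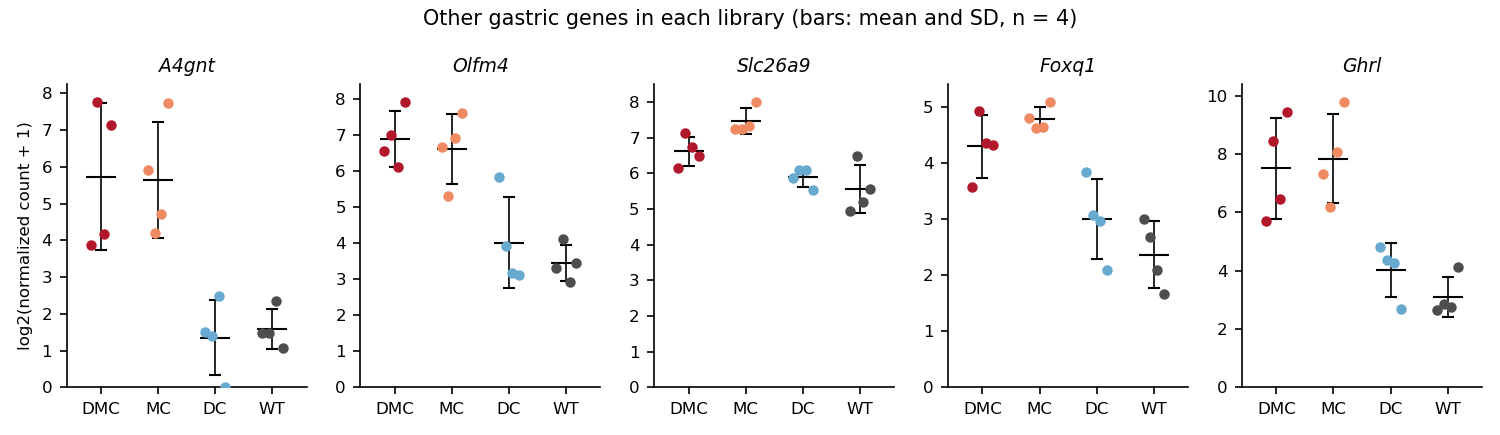
Each panel gives 1 gene that is not a member but belongs to a list of gastric genes, with log2(normalized count + 1) on the y axis and DMC, MC, DC and WT on the x axis. Points are libraries and bars the mean and SD of 4. A4gnt and Ghrl spread over several log2 units within DMC and within MC, and every MC library of Slc26a9 lies above all others.

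Among 4 other chief cell genes tested, 0 passed in limma or edgeR in either comparison with WT, where DESeq2 called 1, Lgr5, and 1 had an unadjusted limma p under 0.05. Of the same 4, Lgr5, a receptor of stem cells and of some chief cells, rose in DMC against DC, at a log2 difference of 3.29 (limma adjusted p = 0.0289, where 0.534% of all genes were called). EdgeR did not call it there (adjusted p = 0.0501), and DESeq2 did. The limma call was lost under 10 of 30 alternatives, among them leaving out any DMC library or DC 2, 3 or 4 (2.67 to 3.38). Lgr5 averaged 75.8 ± 12.9 normalized counts in DMC and 52.6 ± 41.1 in MC, against 9.24 ± 7.65 in DC and 11.4 ± 7.39 in WT (SD, n = 4 each). Bhlha15, the transcription factor MIST1 of both chief and acinar cells, averaged 4026 ± 632 in DMC and 4142 ± 1413 in MC, against 5734 ± 1999 in DC and 5653 ± 729 in WT. Every DMC library of Bhlha15 (3088 to 4447) lay below every WT library (4865 to 6490), while MC and DC each overlapped all other groups. Of 15 family relatives of the members, 1 rose in DMC against WT, Vsig2 (log2 difference 1.34, limma adjusted p = 0.0307), with 347 ± 18.6 in DMC and 296 ± 107 in MC, against 181 ± 28.1 in DC and 147 ± 64.2 in WT. That call was lost under 10 of 30 alternatives, among them leaving out any 1 of the 4 DMC libraries (1.31 to 1.37) or WT 2, 3 or 4 (1.23, 1.10 and 1.43). DESeq2 called Vsig2 in MC against WT and in DMC against DC too. In DMC against DC, DESeq2 alone also called Ghrl, Clu of the neck and metaplasia list and Anxa10 of the pit cell list.

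Neighbouring stomach and gut were read from further lists. In MC and DMC against WT, 0 of 10 foregut transcription factors, 0 of 3 intestinal genes, 0 of 2 forestomach genes and 0 of 7 stomach wall and smooth muscle genes passed limma's test, edgeR or DESeq2. At an unadjusted limma p under 0.05 there were 2, 1, 0 and 1 of these in MC against WT and 0 of each in DMC against WT. No share of all genes at that p is given for these comparisons, so the counts are not read as an excess or a lack. The 8 stomach wall genes summed to 634 to 2386 normalized counts in DMC and 544 to 1136 in MC, against 572 to 1511 in DC and 600 to 1126 in WT. Their highest sum was in DMC 1, where the chief and neck genes were near their lowest. Among the other DMC libraries the sum was 1006 in DMC 2 and 906 in DMC 4, which were high in the members, against 634 in DMC 3, which was not. In MC it was 1136 in MC 4, the library highest in the members, and 544, 619 and 799 in MC 1, 2 and 3. The part of stomach wall in the members' levels was not tested. Barx1, a transcription factor of stomach mesenchyme, averaged 28.7 ± 8.48 in DMC and 37.5 ± 4.14 in MC, against 37.1 ± 21.4 in DC and 22.6 ± 5.25 in WT. The intestinal list summed to 139 to 368 in DMC and 244 to 448 in MC, against 73.0 to 180.03 in DC and 114 to 826 in WT. The parietal list, without Atp4a, summed to 1084 to 1289 in DMC and 1055 to 1439 in MC, against 962 to 1125 in DC and 841 to 1593 in WT. Gkn1, Gkn2, Muc5ac, Tff1, Atp4b, Lipf and Gast were in the pit, parietal, chief and endocrine lists but had no values in the table. It held 6 of 11 pit, 9 of 11 parietal, 5 of 8 other chief and 6 of 8 endocrine genes, so levels of the missing genes are unknown. Whether stomach tissue was present in any library was not tested.

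Tuft cells are chemosensory epithelial cells of the stomach and gut that also form in injured pancreas, and 7 genes of a list of 8 were in the table. They summed to 859, 1376, 563 and 874 normalized counts in DMC and 754, 544, 776 and 1866 in MC, against 992, 560, 618 and 364 in DC and 316, 513, 482 and 477 in WT. The highest sums were those of MC 4 and DMC 2, which were also high in most members, and DMC and DC overlapped. Of the 5 tuft genes tested, limma and edgeR called 0 in MC against WT and 0 in DMC against WT, while 3 had an unadjusted limma p under 0.05 in each. DESeq2 called 2 in MC against WT, Trpm5 and Avil, and 1 in DMC against WT, Avil. The share of all genes at an unadjusted p under 0.05 is not given for these comparisons, so no excess is read from the 3. The part of tuft cells in the members' levels was not tested.

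Genes outside the list were ranked by how closely they followed the members, as Pearson r over 16 libraries with the mean of the members' standardised levels, among 11356 genes averaging 50 normalized counts or more. The 10 closest were Tspan11 at 0.960, Ghrl at 0.958, Cdhr1 at 0.906, Olfm4 at 0.899, Cfi at 0.897, Alb at 0.895, Mest at 0.895, Angptl7 at 0.873, Bex2 at 0.872 and Avil at 0.871. These are descriptions over 4 groups that differ, so a gene can score high by the group levels alone. Over the 8 DMC and MC libraries alone, r was 0.932 for Ghrl, 0.898 for Cfi, 0.853 for Tspan11, 0.824 for Avil, the tuft cell gene named above, and 0.028 for Alb. Alb, which encodes serum albumin, had 272 to 388 normalized counts in DMC and 190 to 301 in MC, against 71.6 to 98.7 in DC and 71.0 to 101 in WT, so it followed the groups but not the animals within them. Of the members themselves, r with that mean was 0.931 to 0.981 for the 8 that separated the groups, 0.841 for Atp4a and 0.318 for Tff2. Each member is part of that mean, and the members were chosen for their group levels, so high values here were built in.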

How the data were processed

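RNA of whole pancreas from 16 caerulein-treated mice was prepared with a strand-specific total RNA kit, per the labels' protocols. STAR 2.6.0b, GRCm38 and DESeq2 are named in the submitters' processing notes. No source used here names the counter, annotation release or gene filter. The table's values are a normalized count signal: the authors divided gene counts by a library's size factor. Since 100% of a library's values were multiples of 1 step (tolerance 0.01 reads), division by that step gave back reads, with size factors of 0.566 to 1.63. Every gene had at least 33 reads over all libraries.

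Log2(normalized count + 1) was fitted with limma 3.58.1 (trend) in R 4.3.3, all 16 libraries in a single fit, over 14220 genes with at least 10 normalized counts in at least 4 libraries, with Benjamini-Hochberg adjustment per comparison and a threshold of 0.05. EdgeR 4.0.16 and DESeq2 1.42.0 on recovered reads were alternatives, with other pseudocounts (0.5 and 5), filters, scalings, fits and covariates, and leaving out each library. Ratios and correlations used log2 values and exact permutation tests (scipy 1.17.1), the latter over 40320 orders. A member whose widest gap between neighbouring libraries exceeded 0.4 of its range got no correlation. The script was tested on simulated data. The replicate numbers are names in the labels, and whether they pair animals is not known. The 24 same-numbered pairs had correlations of -0.37 to 0.38, which cannot settle it, and the main fit used no pairing. Coordinates are from GENCODE mouse release 21 on GRCm38, in which 15146 gene identifiers were found and 10 were not.

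The members and lists were chosen with earlier results of these data known. Named were the members, Men1, Daxx, genes of a list that passed the threshold, abundant genes of a list where a level bears on the members, and the 10 genes most like the members. P-values measure the spread between the labelled replicates of a group. Shares of all genes at an unadjusted p are given only for DMC against MC, DC against WT and the interaction. Counts at an unadjusted p in other comparisons therefore have no share to be read against. Intervals and limits from counts cover counting error only.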

Additional observations from a re-analysis of the deposited data

Results flagged for a closer look

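In 40 groups of 4 libraries (10 members in 4 genotypes), a library was looked for that stood far from the other 3 in unlogged normalized counts. For normally distributed values, chance alone flags about 1 in 20 such groups. That rate need not hold for counts this uneven, and flags of members high in the same animal are not independent. MC 4 stood far above the other 3 MC libraries for 5 members. It had 9856 normalized counts of Cym, where the others had 768 to 2089, and 3848 of Gif, where the others had 305 to 811. It had 7060 of Gkn3, where the others had 546 to 1640. It also had 317 of Slc9a4, where the others had 78.8 to 96.8, and 100.1 of Vsig1, where the others had 23.8 to 27.3. DC 4 stood far below the other DC libraries for Gkn3, with 13.2 normalized counts where the others had 181 to 213.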

How the results depend on the processing

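No member was called in DMC against MC, in DC against WT or in the interaction under any of 30 alternatives. The counts of members called against WT or DC, which describe how the members were chosen, moved with the setting. MC against WT, with 8, fell to 3 with a lymphoid covariate and to 1 without both WT 2 and WT 3 (an alternative chosen after seeing the data), and ran from 2 to 8 with 1 library left out (3 without MC 1, 5 without MC 2, 4 without MC 3, 2 without MC 4, 4 without WT 1, 2 without WT 2, 3 without WT 3). DMC against WT, with 7, fell to 1 with only the groups compared and to 1 without both WT 2 and WT 3, and ran from 1 to 8 (2 without DMC 2, 1 without DMC 4, 2 without WT 3, 3 without WT 4). DMC against DC, with 5, was 9 with quality weights and 9 with DESeq2, 1 with only the groups compared, and 1 to 6 with 1 library left out (2 without DMC 2, 1 without DMC 4, DC 2, DC 3 or DC 4). The counts of all genes called moved as well. In MC against WT, 111 in the main fit became 38 to 189 with 1 library left out and 46 to 391 under other settings. In DMC against WT, 112 became 17 to 183 and 16 to 331, and in DMC against DC, 76 became 14 to 188 and 37 to 1655. The moves of the member counts are therefore not particular to the members. With a replicate block the member counts were 3 in MC against WT, 3 in DMC against WT and 1 in DMC against DC. Whether the replicate numbers pair animals is not known: 11 of 24 same-numbered pairs had a correlation over 0.1, and 1 library correlated best with its own number. Without the 2 libraries farthest from the median of the pair's first gene, 0 correlations between members passed in either set, where 6 and 4 had. Of 1374 repeats of 48 single values, 15 changed direction, all of values that had not been called. For DC against WT these values were those of Gkn3 and Slc9a4 only. No member's value in the interaction or in DMC against DC was among them, so changes of direction there are not counted. With quality weights DMC against MC became -0.14 for Gkn3 and -0.26 for Vsig1. Tff2 in MC against WT became -0.046 with a lymphoid covariate and -0.30 without both WT 2 and WT 3. With 1 library left out, DMC against MC ran from -1.29 to 0.036 for Cym, from -0.16 to 1.12 for Gkn3, from -1.01 to 0.0081 for Slc9a4 and from -0.37 to 0.52 for Vsig1, and Tff2 in DMC against WT from -0.43 to 0.023. The causes were not tested. The 4 animals a group and the spread within DMC and MC, smallest for Tff2, limit which differences between them could be detected, and Cym and Vsig1 in DC and WT were limited by depth.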
